A study of Mus musculus with 2 samples.

Results

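A set of 8 genes that make, store, take up or break down histamine and serotonin was followed in WT and STAP-1 KO leukemic stem cells (LSCs) from mice with experimental chronic myeloid leukemia (CML). They were the 8 of 23284 listed gene symbols that read Hdc, Tph1, Ddc, Slc18a2, Slc6a4, Maoa, Maob or Hnmt, and all 8 were found. The set was selected on its role in amine metabolism with the expression values of these same libraries known, so its KO to WT ratios are a description and carry no test. STAP-1 is a signal-transducing adapter protein, and the comparison was made to see how gene expression differs in LSCs that lack it. In the model, LSK cells (lineage-negative, Sca-1+ and c-Kit+ bone marrow cells) were transduced with p210 BCR-ABL in a retrovirus that also carries green fluorescent protein (GFP), and were transplanted into lethally irradiated C57BL/6SJL (Ly5.1) mice with supporting marrow cells. GFP+ CD45.2+ LSK cells were then sorted at day 11 after this first transplantation. One group came from wild type donor cells and the other from donor cells with a targeted disruption of Stap1, both on C57BL/6J, from mice 8 to 14 weeks old. Both groups carried BCR-ABL and GFP and had been through irradiated hosts, and each is 1 library (WT LSCs and KO LSCs below), with the number of mice behind it not given in the sources used here. No untransduced LSK cells were analysed here, and no difference below has a replicate check.

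Histamine is made from histidine in 1 step by histidine decarboxylase, and serotonin from tryptophan in a pair of steps by tryptophan hydroxylase and aromatic amino acid decarboxylase. Both amines are packed into secretory vesicles by a vesicular monoamine transporter that is driven by a proton gradient, and both are inactivated by enzymes inside the cell once they are taken up again or leak from the store. In bone marrow and blood, mast cells and basophils are the known stores of histamine, rodent mast cells also hold serotonin, and platelets carry serotonin that they have taken up.

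Expression is given in FPKM, fragments scaled to the length of the transcript and to the size of the library, and a ratio as log2((KO + 0.1)/(WT + 0.1)) or as a fold without the 0.1. A share of the low FPKM values (46.0% in WT and 48.0% in KO LSCs) fell within 0.01 read of a whole number of reads, from which effective depths of 7500000 reads (WT LSCs) and 10470000 reads (KO LSCs) were recovered. The reads quoted behind a value are estimates from these depths, and their 95% intervals (exact Poisson for a level, exact binomial for a ratio) cover counting error only, since the amplified cDNA carried no molecular identifiers. The median log2 ratio was -0.04 over the 10974 genes whose mean was 1 FPKM or more, with 5% of genes below -2.52 and 5% above 1.39. The log2 ratio also went down with transcript length across 10835 genes (Spearman's rho = -0.40), with a median of 0.50 in transcripts up to 845 bases and of -1.04 in those from 7443 bases. Stap1 itself had 62.0 FPKM in WT and 0.309 FPKM in KO LSCs. Of the sorting markers, Ly6a (Sca-1) had 285 and 106 FPKM and Kit 468 and 30.1 FPKM, so that both were present in both libraries but Kit was 15.6-fold lower in the second. Cd34, a stem and progenitor cell marker that was not used in the sort, had 281 and 194 FPKM. Other listed stem cell markers went in both directions, with Slamf1 at 3.39 and 8.67 FPKM, Meis1 at 41.7 and 36.8 FPKM and Hlf at 0.318 and 0.140 FPKM. Xist was at 0 in WT LSCs and at 0.849 FPKM in KO LSCs. The Y-linked genes Ddx3y (33.9 and 18.6 FPKM), Eif2s3y (69.3 and 44.9 FPKM), Kdm5d (4.92 and 2.29 FPKM) and Uty (12.6 and 4.95 FPKM) were all lower in KO LSCs. The sex of the donors is not known here. The part of these differences in the values below was not tested.

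The genes of amine synthesis, storage and serotonin uptake were all lower in KO LSCs, whereas the breakdown genes went in both directions. Of the 8 genes, 6 were at least 2-fold lower and 1 was at least 2-fold higher, with all 8 at 0.1 FPKM or more in both libraries. Over all 12507 genes at that level, 2860 (22.9%) were at least 2-fold lower and 1538 (12.3%) at least 2-fold higher. The median log2 ratio of the 8 genes was -2.88. Because the genes were chosen with these values known, the counts are read as a description of the set. The levels spanned from 0.280 FPKM (Hnmt) to 5629 FPKM (Hdc) in WT LSCs, and from 1.58 FPKM (Ddc) to 352 FPKM (Tph1) in KO LSCs. Together the 8 genes took up 1.90% of the summed FPKM in WT LSCs but 0.150% in KO LSCs, with transcripts under 200 bases left out of the sum. In RNA from a sorted population, fewer cells of a kind and less RNA in each cell cannot be told apart.

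**Figure D1:**
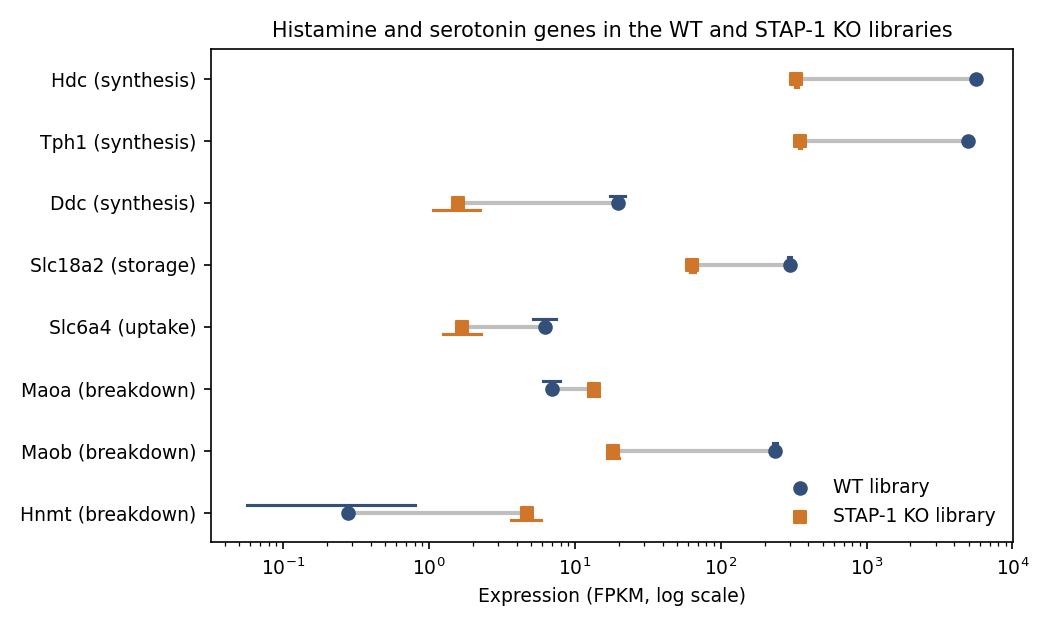
Expression of the 8 genes (rows, with their role) in FPKM on a log axis, with a circle for WT LSCs, a square for KO LSCs and a short line above or below each marker for the 95% counting interval of that value. Hdc and Tph1 stood at 5629 and 4942 FPKM in WT LSCs and at 330.2 and 352 FPKM in KO LSCs, and Maoa and Hnmt are the rows in which the square lies to the right of the circle.

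The 250 bases before the annotated start are shown first for 4 of the genes, namely Hdc and Tph1, which had nearly the same pair of values, and Maoa and Hnmt, which were higher in KO LSCs. They were taken from RefSeq (GRCm38.p6), where 7 of the 8 genes had an entry and Maob had none. They lie at chr2:126618679-126618928 (minus strand) for Hdc, chr7:46672538-46672787 (minus strand) for the more upstream of the 2 starts of Tph1, chrX:16619448-16619697 (plus strand) for Maoa and chr2:24049380-24049629 (minus strand) for Hnmt. The Hdc window lies inside the gene as GENCODE M21 draws it, and the Hnmt window overlaps its gene at the 3′ end. For both, that annotation has an earlier start than RefSeq. Each reads from 5′ to 3′ toward the start, and capitals mark GATAA or its complement TTATC, the core of the sites of GATA factors, and GGGCGG or its complement CCGCCC, the core of a GC box.
Hdc: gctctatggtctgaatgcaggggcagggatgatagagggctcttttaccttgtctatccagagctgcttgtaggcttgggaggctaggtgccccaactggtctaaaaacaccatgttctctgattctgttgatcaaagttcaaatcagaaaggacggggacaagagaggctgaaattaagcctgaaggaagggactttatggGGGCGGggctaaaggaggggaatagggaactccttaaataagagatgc
Tph1: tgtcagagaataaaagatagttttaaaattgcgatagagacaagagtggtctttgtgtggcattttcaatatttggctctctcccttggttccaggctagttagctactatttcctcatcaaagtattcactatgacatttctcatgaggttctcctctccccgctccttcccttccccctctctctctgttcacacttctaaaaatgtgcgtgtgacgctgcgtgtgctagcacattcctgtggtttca
Maoa: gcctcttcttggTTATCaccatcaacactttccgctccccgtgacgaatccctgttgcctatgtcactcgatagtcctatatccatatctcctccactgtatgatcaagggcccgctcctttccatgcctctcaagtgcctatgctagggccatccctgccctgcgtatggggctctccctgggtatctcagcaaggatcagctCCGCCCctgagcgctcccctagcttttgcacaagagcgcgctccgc
Hnmt: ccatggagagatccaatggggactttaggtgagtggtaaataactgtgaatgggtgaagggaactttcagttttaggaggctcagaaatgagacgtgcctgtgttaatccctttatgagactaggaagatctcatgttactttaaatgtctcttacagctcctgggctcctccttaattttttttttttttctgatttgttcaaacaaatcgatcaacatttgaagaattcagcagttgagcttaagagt
GATAA or TTATC occurred in 22.6% of 32851 RefSeq promoters of this length, and among the 7 genes in Maoa (from 238 to 234 bases before the start) and in Slc18a2. GGGCGG or CCGCCC occurred in 32.7% of all promoters. It was found once in Hdc (48 to 43 bases before the start) and once in Maoa, in 2 copies in Slc18a2 and in 3 copies in Slc6a4. The general E-box letters CANNTG occurred in 66.2% of promoters and in Hdc, Slc18a2, Slc6a4, Maoa and Hnmt. CATGTG (or CACATG), a special case of CANNTG, occurred in 12.3% of promoters and in Slc6a4. TATAAA (or TTTATA) occurred in 12.4% of promoters and in Ddc, and TGACGTCA in 1.55% and in none of the 7. Tph1 held no match to any of the 6 motifs in this window. The guanine and cytosine content was 48.8% for Hdc, 43.6% for Tph1, 56.8% for Maoa and 38.8% for Hnmt. A match is a string of letters, and binding was not measured.

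Histidine decarboxylase is the enzyme that makes histamine in mammals. Hdc (chr2:126593667-126619299, minus strand, 12 exons, transcript of 2392 bases in GENCODE M21) had 5629 FPKM in WT LSCs and 330.2 FPKM in KO LSCs. It was 17.0-fold lower (16.7 to 17.5), a log2 ratio of -4.09, from an estimated 92206 and 7551 reads. Hdc was among the most abundant messages of WT LSCs, at rank 8 of all genes and 0.958% of the summed FPKM. It was at rank 264 and 0.0632% in KO LSCs, with transcripts under 200 bases left out of both sums. Of the 10974 genes, 126 had a lower ratio.

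Tryptophan hydroxylase 1 carries out the first and rate-limiting step of serotonin synthesis outside neurons. Tph1 (chr7:46644641-46672537, minus strand, longest of 3 transcripts with 4562 bases) had 4942 FPKM in WT LSCs and 352 FPKM in KO LSCs, from an estimated 161386 and 16064 reads. It was 14.02-fold lower (13.8 to 14.3), with a log2 ratio of -3.81, and 161 genes had a lower ratio. Its rank was 9 in WT and 234 in KO LSCs, next to that of Hdc in the first and a little above it in the second. The neuronal enzyme Tph2 was at 0 in both libraries, as were Th, Dbh, Pnmt, Aanat, Asmt and Inmt, which serve the synthesis of catecholamines, melatonin or methylated amines.

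Aromatic amino acid decarboxylase turns the product of tryptophan hydroxylase into serotonin and does not act on the histamine route. Ddc (chr11:11814101-11898144, minus strand, longer of 2 transcripts with 2018 bases) had 19.7 FPKM in WT LSCs and 1.58 FPKM in KO LSCs, from an estimated 267 and 30.0 reads. It was 12.4-fold lower, with a wide counting interval of 8.50 to 18.8, and a log2 ratio of -3.55. Its level was far below that of Tph1 in both libraries, and the ratio of Tph1 to Ddc was 251 in WT and 222 in KO LSCs. With 30.0 estimated reads of Ddc in KO LSCs, the small shift between these ratios lies within counting error, and with the medians of like transcript length taken off, the log2 ratio of Ddc (-3.88) was below that of Tph1 (-3.36).

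The 3 synthesis genes summed to 10591 FPKM in WT and 684 FPKM in KO LSCs, 15.5-fold lower. Hdc and Tph1 were close in level, with a ratio of Hdc to Tph1 of 1.14 in WT and 0.937 in KO LSCs, so that their order in FPKM turned over. In estimated reads, which are not divided by length, Tph1 was above Hdc in both libraries. In both genes the counting intervals were narrow, but the shift of 0.28 between their log2 ratios has no replicate error to be set against. When each log2 ratio was taken from the median of genes of like transcript length, Hdc stood at -4.32 and Tph1 at -3.36, since Tph1 has the longer transcript. The gap between them thus depended on how length was treated, and the direction did not.

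**Figure D2:**
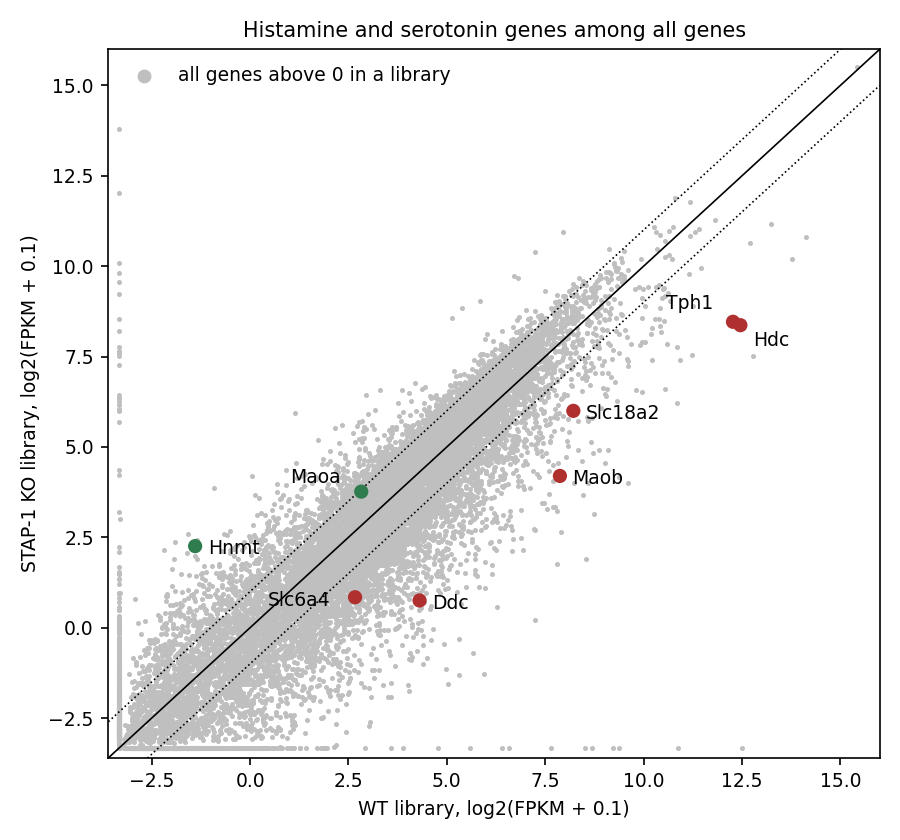
Each gene by its level in WT LSCs (x axis) and KO LSCs (y axis), both as log2(FPKM + 0.1), with all genes above 0 in either library in grey, the 6 lower genes in red and the 2 higher genes in green. The solid line marks equal values and the dotted lines a 2-fold difference, and Hdc and Tph1 lie side by side at the upper right, far below the dotted line.

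The vesicular monoamine transporter 2 loads both histamine and serotonin into granules. Slc18a2 (chr19:59260896-59296012, plus strand, transcript of 3785 bases) had 297 FPKM in WT LSCs and 63.8 FPKM in KO LSCs, from an estimated 7962 and 2389 reads. It was 4.65-fold lower (4.44 to 4.87), a log2 ratio of -2.22, with 741 genes at a lower ratio. The storage gene was thus lower by a smaller factor than the synthesis genes, and its interval did not overlap any of theirs. The ratio of Hdc to Slc18a2 was 18.97 in WT and 5.18 in KO LSCs, and that of Tph1 to Slc18a2 was 16.7 and 5.52. The related carriers added little, with Slc18a1 (vesicular transporter 1) at 0.504 and 0.0328 FPKM, an estimated 10.99 and 0.999 reads, and Slc18b1, a vesicular polyamine carrier, at 0.457 and 1.09 FPKM.

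The serotonin transporter in the cell membrane brings serotonin back into the cell. Slc6a4 (chr11:76998603-77032340, plus strand, transcript of 2725 bases) had 6.25 FPKM in WT LSCs and 1.69 FPKM in KO LSCs, from an estimated 118 and 44.6 reads. It was 3.69-fold lower (2.58 to 5.28), a log2 ratio of -1.82. This interval holds the ratio of Slc18a2, so that at this depth the storage and the uptake gene did not differ beyond counting error, and the ratio of Slc18a2 to Slc6a4 was 47.5 in WT and 37.7 in KO LSCs. Slc22a3, a low-affinity carrier that moves histamine and serotonin, had the higher level of the carriers at the membrane, with 34.4 and 38.0 FPKM.

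The breakdown genes did not go together. Monoamine oxidase A, which prefers serotonin, and monoamine oxidase B, which acts on other amines and on the methylated product of histamine, both sit in the outer membrane of mitochondria. Maob (chrX:16709282-16817366, minus strand, transcript of 2411 bases) had 234 FPKM in WT LSCs and 18.2 FPKM in KO LSCs, from an estimated 3872 and 421 reads. It was 12.8-fold lower (11.6 to 14.2), a log2 ratio of -3.68, which is close to those of the synthesis genes, and the ratio of Tph1 to Maob was 21.1 and 19.3 in the 2 libraries.

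Maoa (chrX:16619698-16687818, plus strand, transcript of 4167 bases) had 6.98 FPKM in WT LSCs and 13.5 FPKM in KO LSCs, from an estimated 207 and 559 reads. It was 1.93-fold higher (1.65 to 2.28), a log2 ratio of 0.94, which lies just short of the 2-fold limit, and it passed that limit when the libraries were scaled to equal sums without transcripts under 200 bases (1.11) or when the median of transcripts of like length was taken off (1.33), but not under the other 3 scalings (0.97 to 0.98). The genes lie tail to tail on the X chromosome, 21463 bases apart, and had opposite directions. Maob made up 97.1% of the summed FPKM of the pair in WT LSCs and 57.5% in KO LSCs, and the sum itself was 241 and 31.7 FPKM. The ratio of Maob to Maoa was 33.5 in WT and 1.35 in KO LSCs, a 24.8-fold difference between a pair of enzymes that share most of their chemistry.

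Histamine N-methyltransferase inactivates histamine inside cells. Hnmt (chr2:24002910-24049394, minus strand, transcript of 1656 bases) had 0.280 FPKM in WT LSCs and 4.68 FPKM in KO LSCs. These stand for an estimated 3.04 reads (0.619 to 8.77) and 70.9 reads (55.5 to 89.6). The ratio was 16.7-fold higher in KO LSCs, with an interval from 5.57 to 84.2 because of the few WT reads, and a log2 ratio of 3.65. Of the 10974 genes, 44 had a higher ratio, although Hnmt reached a mean of 1 FPKM through KO LSCs alone, and its log2 ratio was 2.15 with 1 FPKM added in place of 0.1. The ratio of Hdc to Hnmt, the making and the methylating enzyme of histamine, was 20117 in WT and 70.6 in KO LSCs, a 285-fold difference whose size rests on those few reads. Diamine oxidase, the other enzyme that inactivates histamine, was nearly silent, with Aoc1 (listed under its older symbol Abp1) at 0.108 FPKM in WT LSCs and at 0 in KO LSCs.

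The order of the 8 ratios thus ran from Hdc through Tph1, Maob and Ddc, at log2 ratios between -4.09 and -3.55, to Slc18a2 and Slc6a4, and then to Maoa and Hnmt on the other side of 0. Neighbours in this order did not always differ beyond counting error. The interval of Ddc (8.50 to 18.8-fold lower) held the values of Hdc, Tph1 and Maob, and the interval of Slc6a4 held that of Slc18a2. Hdc and Tph1, with their many reads, had intervals that did not overlap. The 4 genes with the lowest ratios had transcripts of 2018 to 4562 bases, and the medians of their length classes lay between -0.45 and 0.33.

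**Figure D3:**
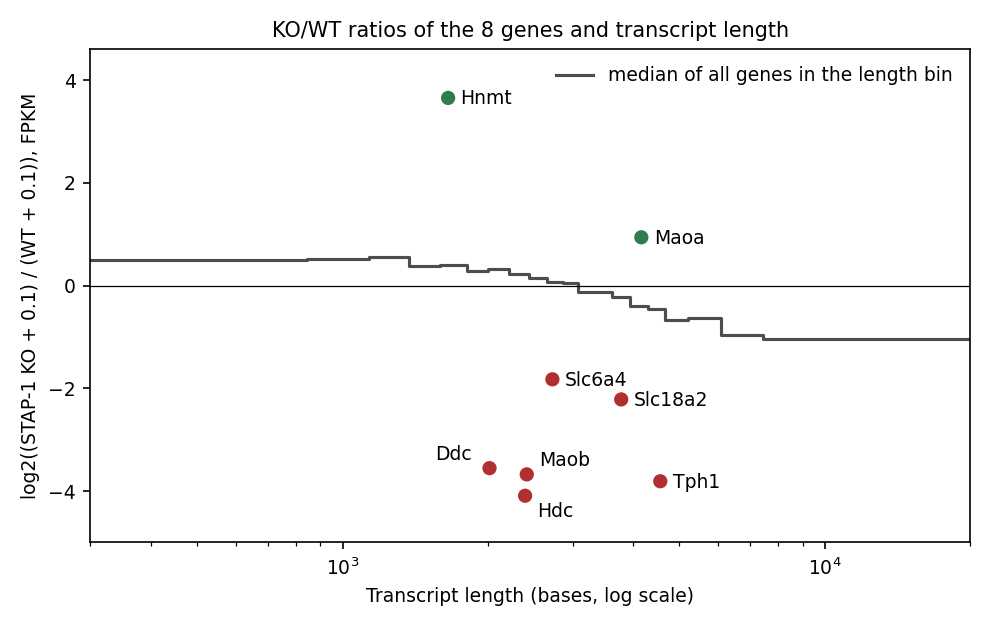
Log2 ratio of the 8 genes (y axis, FPKM with 0.1 added) by transcript length (x axis, bases, log scale), with the median of all genes in each of 20 length classes as a stepped line. The line goes from 0.50 in the shortest to -1.04 in the longest class, and all 6 red points lie below it and both green points above it.

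Genes of the same pathways that are not among the 8 did not go the same way as a whole. In 12 lists of cofactor, transport, pump, breakdown, receptor and decarboxylase genes, 100 genes were listed, 29 were at 0 in both libraries and 60 had at least 0.1 FPKM in both. Of these 60, 16 (26.7%) were at least 2-fold lower and 7 (11.7%) at least 2-fold higher, beside 22.9% and 12.3% of all genes. For the 56 genes whose mean was 1 FPKM or more, the median was -0.41 on the log2 scale, beside -0.04 over all genes. A share near that of all genes says nothing particular to these lists.

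Tryptophan hydroxylase needs tetrahydrobiopterin. Of 8 genes for this cofactor, Gch1, the first and rate-limiting enzyme of its synthesis, was 4.27-fold lower (67.3 and 15.7 FPKM). The recycling enzymes Qdpr (66.8 and 147 FPKM) and Pcbd2 (33.9 and 70.7 FPKM) were over 2-fold higher. The median log2 ratio of the list was 0.87, with 2 of the 8 genes below 0, Gch1 and the gene of its regulator Gchfr (31.7 and 19.7 FPKM). Hdc and Ddc use pyridoxal phosphate, for which the kinase Pdxk had 35.5 and 10.05 FPKM and the phosphatase Pdxp 4.31 and 13.1 FPKM.

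Of 6 carriers of tryptophan, histidine and other amino acids at 0.1 FPKM or more in both libraries, 3 were at least 2-fold lower and none higher (22.9% and 12.3% of all genes), with a median log2 ratio of -0.95. Slc7a8 had 298 and 16.1 FPKM, 18.6-fold lower, and the related Slc7a5 (147 and 46.0 FPKM) and Slc3a2, the heavy chain that pairs with both (368 and 163 FPKM), were lower too. The proton pump of the vesicle, whose gradient drives Slc18a2, had 17 listed genes, of which 4 were at least 2-fold lower and none higher, with a median of -0.51. The largest difference in this list was that of Atp6v0a1 (23.9 and 5.56 FPKM), followed by Atp6v0d1 (155 and 59.9 FPKM) and Atp6v0a2 (58.6 and 23.4 FPKM). The count is to be read beside the 22.9% of all genes that were lower, and Atp6ap1, with 285 and 142 FPKM, was only just past the limit.

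Among the other enzymes that clear amines, 1 of 9 was at least 2-fold lower and 1 higher, beside 22.9% and 12.3% of all genes. The sulfotransferase Sult1a1 had 7.002 and 0.247 FPKM, from an estimated 61.0 and 3.001 reads. Aldh7a1 had 8.74 and 19.7 FPKM, while the main mitochondrial aldehyde dehydrogenase Aldh2 (150 and 91.3 FPKM) stayed within 2-fold. Other uses of the same amino acids were looked at next. Histidine ammonia lyase, which breaks down histidine, was 12.7-fold lower (Hal, 6.17 and 0.487 FPKM). Of the kynurenine route, which consumes tryptophan, Ido1 and Ido2 were at 0 in both libraries, Kmo had 6.87 and 2.21 FPKM, and Haao had 3.41 and 13.5 FPKM. Wars, which loads tryptophan onto its transfer RNA, had 63.9 and 82.2 FPKM.

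Receptors for histamine were more abundant than those for serotonin. Hrh4, the histamine receptor of blood cells, was 5.80-fold lower (19.2 and 3.31 FPKM, an estimated 191 and 46.0 reads). Hrh2 had 2.91 and 2.15 FPKM, Hrh1 had 0.0373 and 0.0267 FPKM, about 1 read in each library, and Hrh3 was at 0. Of 14 serotonin receptor genes, 9 were at 0 in both libraries. Htr7 had 2.37 and 0.698 FPKM (3.39-fold lower), Htr2a had 0.965 and 0.761 FPKM, and Htr1b had 1.82 FPKM in WT LSCs and was at 0 in KO LSCs. Htr5b and Htr2b were at 0 in WT LSCs and had 0.372 and 0.0512 FPKM in KO LSCs, from a handful of reads. Related decarboxylases and lyases had 3 genes at 0.1 FPKM or more in both libraries, of which 1 was at least 2-fold lower and none higher, beside 22.9% and 12.3% of all genes. Odc1, the ornithine decarboxylase that starts polyamine synthesis, had 38.8 and 77.4 FPKM and was 1.99-fold higher, just short of the limit, Csad 2.33 and 3.58 FPKM, and Sgpl1, a lyase of sphingolipid breakdown, 42.1 and 6.51 FPKM, 6.46-fold lower.

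**Figure D4:**
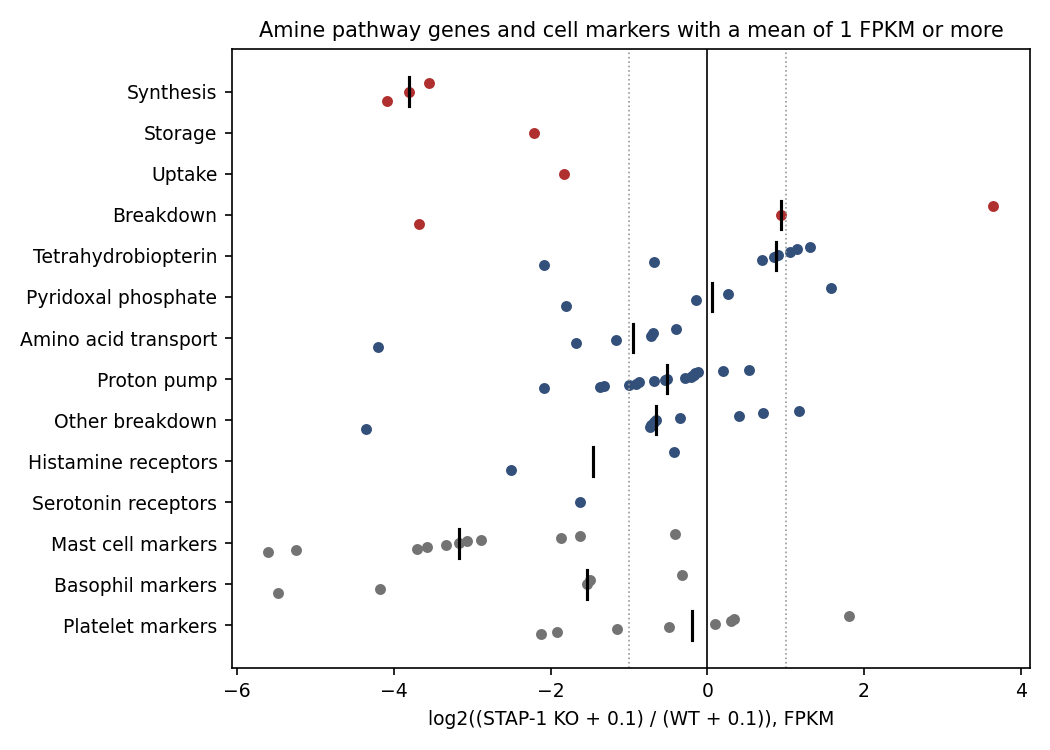
Log2 ratio (x axis, FPKM with 0.1 added) of each gene whose mean was 1 FPKM or more in the lists of amine pathway genes and cell markers (rows), with the 8 genes in red, other pathway genes in blue and markers in grey, and a vertical bar at the median of each list with more than 1 gene. The dotted lines mark a 2-fold difference, and the median was -3.81 for synthesis, 0.87 for tetrahydrobiopterin and -3.17 for mast cell markers.

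Most markers of mast cells and basophils, the known stores of histamine, were lower in KO LSCs, as the synthesis genes were. All 12 mast cell markers were listed, and 10 were at least 2-fold lower and none higher, beside 22.9% and 12.3% of all genes, with a median log2 ratio of -3.17 and a summed level of 43981 FPKM in WT and 4298 FPKM in KO LSCs, 10.2-fold lower. The granule proteases Cpa3 (17984 and 1775 FPKM), Cma1 (13924 and 1168 FPKM) and Tpsb2 (7016 and 185 FPKM) were among the most abundant messages of WT LSCs. The transcription factors Gata2 (409 and 55.2 FPKM) and Mitf (12.7 and 0.878 FPKM) were lower as well. The factor was not common to the list, since among markers above 0 in both libraries it ran from 1.33-fold (Mcpt1, 379 and 286 FPKM) to 49.1-fold, and Mrgprb2, at 0.357 FPKM in WT LSCs, was at 0 in KO LSCs. Of 5 basophil markers 4 were at least 2-fold lower, beside the same 22.9%, with a median log2 ratio of -1.53 and sums of 3448 and 1085 FPKM. Mcpt8 had 2801 and 993 FPKM, and Prss34, with 71.1 and 56.7 FPKM, stayed within 2-fold. The part of these cells in the values of the 8 genes was not tested, and a lower share of mast cells among the sorted cells cannot be told apart from lower expression within them.

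Set against the summed mast cell markers, the 8 genes went in both directions. Hdc was 12.8% of that sum in WT and 7.68% in KO LSCs, 1.67-fold lower, and Tph1 was 11.2% and 8.20%, 1.37-fold lower. Maob (0.533% and 0.425%) and Ddc (0.0448% and 0.0369%) differed by less than 1.5-fold on this scale. By contrast, Slc18a2, at 0.675% and 1.48%, and Slc6a4, at 0.0142% and 0.0394%, were higher in KO LSCs against the same sum. Hnmt (0.000636% and 0.109%) and Maoa (0.0159% and 0.314%) were far higher. The sum itself was 10.2-fold lower in KO LSCs, so a gene of equal FPKM in both libraries also comes out higher on this scale. Thus Slc18a2 and Slc6a4 were lower in level but less so than the summed markers, most of which was Cpa3, Cma1 and Tpsb2. These directions depended on the markers used. Mcpt1 (1.33-fold), Mcpt4 (3.08-fold) and Mcpt2 (3.65-fold lower) fell less than Slc18a2 and Slc6a4. Tpsb2 (38.0-fold lower) fell more than Hdc and Tph1.

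Markers of other cells went in both directions. For platelets and megakaryocytes, which take up serotonin through Slc6a4, 3 of 8 markers were at least 2-fold lower and 1 higher, with a median of -0.19, as in Pf4 (57.9 and 71.2 FPKM), Ppbp (5.05 and 17.97 FPKM) and Itga2b (123 and 32.5 FPKM). Gp1ba (19.6 and 4.43 FPKM) and Vwf (1.89 and 0.799 FPKM) were the other lower ones, and over all genes 22.9% were lower and 12.3% higher, which also stands beside the counts of the next lists. Enteroendocrine and neuronal markers, for the other known sources of serotonin, summed to 0.452 FPKM in WT and 1.40 FPKM in KO LSCs, with Snap25, Tac1 and Stmn2 at 0 in both. Markers of neutrophils and their precursors summed to 957 and 4780 FPKM. Of the 10, 5 were at least 2-fold higher (Mpo, Elane, Prtn3, Ctsg and Ms4a3), such as Mpo at 248 and 1973 FPKM. The 4 lower ones were Ltf, Camp, Ngp and S100a9, such as Ngp at 52.3 and 9.72 FPKM. Of 7 macrophage and monocyte markers, 3 were lower, such as Adgre1 at 30.7 and 4.34 FPKM, and 3 higher, such as Ly6c2 at 20.5 and 97.96 FPKM. The part of these shifts in the higher Hnmt and Maoa values was not tested.

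The genes nearest to each of the 8 in their pair of log2(FPKM + 0.1) values were listed as a description over 2 libraries. Hdc and Tph1 were each other's nearest gene, at a distance of 0.21, and next to both came Tpsb2, a mast cell tryptase (0.90 from Hdc), and Ctsd, a lysosomal protease (1.31 from Hdc). Nearest to Maob were Cd200r1, Prnp and Papss2, and nearest to Slc18a2 were Bhlhe40, Itgb7 and Glipr2. Among the genes of lower level, where more genes lie close together, Ddc was nearest to Galc, Stk10 and the cytokine gene Il13, Slc6a4 to Rreb1, Kif13a and Abca3, Maoa to Sec61a2, Mrps25 and Zfp81, and Hnmt to Kcnk12, Nr0b2 and Tac2.

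Genes next to the 8 on the chromosome were in part within and in part beyond 2-fold. Beside Hdc, Slc27a2 lay 5423 bases away with 0.255 and 1.05 FPKM, and Gabpb1 8142 bases away with 35.5 and 55.8 FPKM. Beside Tph1, Sergef had 13.8 and 15.8 FPKM and Saal1 10.9 and 11.1 FPKM, both within 2-fold. Neighbours of Slc6a4 (Blmh, 73.6 and 99.98 FPKM, and Nsrp1, 12.5 and 17.6 FPKM) and the left neighbour of Hnmt (Spopl, 9.69 and 8.93 FPKM) were likewise within 2-fold. Beyond 2-fold were, beside Slc27a2, which was higher in KO LSCs, Pdzd8, whose end lies 1165 bases from that of Slc18a2 (17.6 and 6.26 FPKM), and the neighbours of Ddc. There Fignl1 had 38.3 and 84.2 FPKM, and Grb10, a growth factor receptor adapter 32363 bases away, had 24.2 and 1.41 FPKM and was 17.2-fold lower. Cypt1, Ndp, Kcnk18 and Tbpl2, which flank Maoa, Maob, Slc18a2 and Hnmt, were at 0 in both libraries. The authors' counting is not stated to have used strand, so reads of overlapping genes could not be told apart, but none of the 8 overlapped its nearest coding neighbour.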

How the data were processed

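RNA-seq libraries of GFP+ CD45.2+ LSK cells, 1 WT and 1 STAP-1 KO, were grouped by their labels. RNA was extracted with a miRNeasy kit per the labels and an RNeasy Mini kit per the methods. The cDNA was made with a SMART-Seq v4 kit, libraries with Nextera XT, and 75-base single reads were sequenced. Per the submitters' processing notes, reads were mapped to mm10 with TopHat2 2.0.13, Bowtie2 2.2.3 and SAMtools 0.1.19, and the authors deposited FPKM values from Cuffnorm (Cufflinks 2.2.1) for 23284 symbols. The gene annotation and the scaling by Cuffnorm are not given in the sources used here. FPKM values divide by length and depth, so that the same read count gives a smaller value in a longer transcript.

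From these values, ratios were computed in Python 3.11.15 with scipy 1.17.1, pandas 2.3.3 and numpy 2.4.6. A gene was called at a 2-fold ratio if both libraries had 0.1 FPKM or more, and log2 ratios used a pseudocount of 0.1 FPKM. With 1 library per genotype no p-value was computed. Of the symbols, 20876 matched GENCODE M21 (GRCm38) as written, 1881 through an older symbol and 527 not at all. Depth was recovered from genes below 0.3 FPKM with 1 RefSeq-linked transcript, where 46.0% (WT, 1260 genes) and 48.0% (STAP-1 KO, 1582 genes) came within 0.01 read of a whole number after 208 bases were taken off each length. Estimated reads are FPKM times this length and depth. Where a gene had several transcripts, as Tph1 and Ddc did, the longest was used, and the estimated reads and length classes rest on that choice. The steps were tested on simulated data.

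The 8 genes, the pathway and marker lists and the naming rule were chosen with earlier results of these data known. Named genes are the 8, up to 3 genes of each pathway list (mean of 1 FPKM or more) that differed most on the log2 scale with 1 FPKM added, the detected receptors, Stap1, marker and sex-linked genes, the 3 genes nearest in value and the coding genes on either side. Other genes named (among them Pcbd2, Slc18a1, Slc18b1, Aoc1, Ido1, Ido2 and the synthesis genes at 0) are list members added after their values were seen. Some list members that the rule selects are not reported here. Alternatives changed the pseudocount, scaling, length correction, floor, fold limit and gene types.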

Additional observations from a re-analysis of the deposited data

How the results depend on the processing

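All 8 genes kept their direction under the 7 alternatives of pseudocount, scaling and transcript length. The log2 ratio ran from -4.32 to -3.92 for Hdc, -3.81 to -3.36 for Tph1, -3.88 to -3.001 for Ddc, -2.22 to -1.998 for Slc18a2, -1.89 to -1.43 for Slc6a4, 0.86 to 1.33 for Maoa, -3.90 to -3.51 for Maob and 2.15 to 4.02 for Hnmt. Of the 8, 6 were at least 2-fold lower under every alternative but the 4-fold limit, which left 5. The number at least 2-fold higher was 1, and it became 2, with Maoa, when the libraries were scaled to equal sums without transcripts under 200 bases, when ratios were corrected for transcript length and at a 1.5-fold limit. It became 0 at a floor of 1 FPKM in both libraries, which leaves out Hnmt. The scaling to equal sums without transcripts under 200 bases moved the median log2 ratio of all genes to 0.12 and the share of lower calls among all calls from 65.0% to 53.9%, while the other 3 scalings gave shares of 62.4% to 62.9%. Over all genes, 1071 were lower and 300 higher at a 4-fold limit, and 4101 were lower and 3201 higher at a 1.5-fold limit. No paired analysis was possible because each genotype has 1 library, and for the same reason no library could be left out. Depth limits Hnmt in the WT library most, with 3.04 estimated reads, and then Ddc and Slc6a4 in KO LSCs, with 30.0 and 44.6. For Hdc and Tph1 the counting error is small, and the missing replicates set the limit.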
